A study of Mus musculus with 4 samples.

Results

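The sarcomere is the repeating contractile unit of striated muscle, and 38 genes for its filaments, its scaffold and its calcium and energy supply were followed here in single cells of mouse inner ear organoids. The members were taken by gene symbol. All 38 were present among the 27998 genes listed for each library. Inner ear organoids are aggregates grown from mouse embryonic stem cells towards the tissue that forms the cochlea and vestibule, and these ones also held skeletal muscle-like cells. The 4 libraries came from KO organoids (R1/E-Tmprss3KO-GFPKI) at day 35, WT organoids (R1/E) at day 35, KO organoids at day 25 and WT organoids at day 25. R1/E is an embryonic stem cell line, derived from strain 129X1x129S1. The KO line carries a disruption of Tmprss3, a membrane serine protease gene linked to deafness, and a GFP knock-in. Each genotype was 1 line with 1 library per day, so no difference below has a replicate check and none has a p-value.

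In a sarcomere, myosin heavy chains with their essential and regulatory light chains form the thick filament, and actin with tropomyosin and the 3 troponin subunits forms the calcium-switched thin filament. Titin spans the unit, nebulin lies along the thin filament, and alpha-actinin anchors it at the Z disc. Most of these parts come as isoforms from separate genes. Developing skeletal muscle first uses embryonic, perinatal and cardiac-type isoforms, such as Myh3, Myh8 and Actc1, and later replaces them with fast or slow isoforms.

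Kept cells numbered 6729 in KO and 8166 in WT at day 35, and 11190 in KO and 9768 in WT at day 25, counted as barcodes with at least 500 genes and at most 10% mitochondrial UMIs. A UMI is a tagged RNA molecule counted once, read here near the 3' end of the transcript. Median UMIs per kept cell were 4420.0 in KO and 3089.0 in WT at day 35, and 6371.0 in KO and 6166.5 in WT at day 25. Tmprss3, the targeted gene, had 5 UMIs in KO and 8 UMIs in WT at day 35, and 7 UMIs in KO and 18 UMIs in WT at day 25, which is too few to check the genotype, and whether the 3' tag lies outside the disrupted part is not given in the sources used here. Pairs of libraries shared between 66 and 136 kept barcode sequences.

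Muscle-like cells were 2 of 24 clusters, found with the 38 members left out of the clustering and named from other skeletal muscle genes. The first was led by Cav3, Eno3 and Pgam2 (caveolin 3, beta-enolase and muscle phosphoglycerate mutase) and the second by Myog, the myogenin gene, with the fusion genes Gm7325 (myomixer) and Tmem8c (myomaker) and Myod1 among its leading genes. They are called the Cav3-led and the Myog-led cluster. Muscle-like cells numbered 247 in KO and 821 in WT at day 35, and 1179 in KO and 965 in WT at day 25. Their share of kept cells was 3.67% in KO and 10.1% in WT at day 35, and 10.5% in KO and 9.88% in WT at day 25. With each library clustered alone there were 508 in KO and 883 in WT at day 35, and 1134 in KO and 955 in WT at day 25, so the KO day 35 number depends on the clustering. The share of the Cav3-led cluster among muscle-like cells was 76.9% in KO and 77.8% in WT at day 35, and 37.2% in KO and 55.8% in WT at day 25. The mix of the 2 clusters was therefore nearly the same in KO and WT at day 35 but not at day 25, and it also differed between the days. For the members as a set, values over both clusters are therefore given beside values within a cluster.

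The members stood far higher in the Cav3-led cluster than in the Myog-led one. In the Cav3-led cluster their share of all UMIs was 7.51% in KO and 7.1998% in WT at day 35, and 8.61% in KO and 8.24% in WT at day 25. Their share in the Myog-led cluster was 1.64% in KO and 1.404% in WT at day 35, and 2.09% in KO and 1.94% in WT at day 25. Cluster 4, the myogenic progenitor-like cells led by Myf5 and Pax7, had a share of 0.191% in KO and 0.343% in WT at day 35, and 0.234% in KO and 0.2596% in WT at day 25. In cells of all other kinds it was 0.09996% in KO and 0.249% in WT at day 35, and 0.175% in KO and 0.186% in WT at day 25. Levels are given as CPM, the gene's UMIs scaled to a total of 1000000 UMIs of the same cells. They are not scaled by transcript length, so they compare a gene between libraries and not one gene with another.

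**Figure D1:**
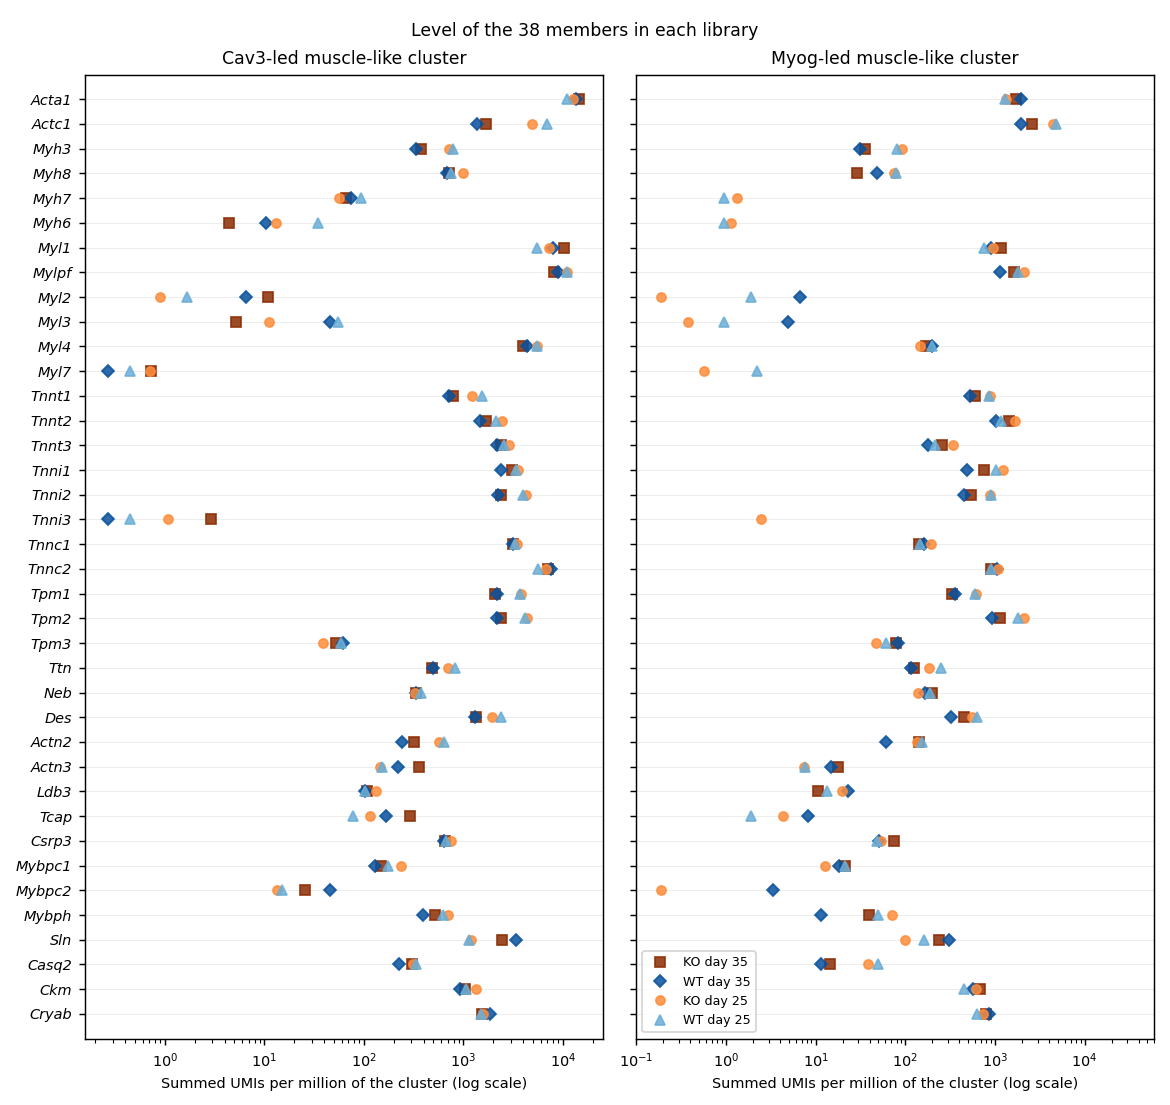
Level of each of the 38 members, as CPM on a log scale, in the Cav3-led cluster (left) and the Myog-led cluster (right). Each symbol is 1 library and a library with no UMI of a gene has no symbol. Most genes have their 4 symbols close together, Actc1 splits by day, and Myl3 splits by genotype.

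KO and WT muscle-like cells had similar levels of nearly all members on both days. A member counted as past the fold when its log2 ratio was at least 1 in size, its 95% counting interval left out 0 and it had at least 20 UMIs over the 2 libraries. At day 35, 0 members were higher and 2 lower in KO of 36 that reached 20 UMIs, against 2.63% and 1.63% of all genes that did. Their median log2 ratio, KO over WT, was 0.04, and 31 lay within 0.5 of 0; the median of all genes was 0.1. With cells chosen by a gate on muscle markers the day 35 member median was -0.607, and with each library clustered alone it was -0.595, at 4 members past the fold in each case. The median and shares of all genes were not computed for these choices of cells. At day 25, 1 member was higher and 4 were lower in KO of 37, against 1.68% and 1.97% of all genes. The day 25 median was -0.27, against 0.03 for all genes.

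That day 25 median was not seen within either cluster. In the Cav3-led cluster at day 25 the members had a median log2 ratio, KO over WT, of 0.04, and in the Myog-led cluster it was 0.03. In the Cav3-led cluster 0 members were higher and 2 lower in KO at day 25, against 1.7% and 1.9% of all genes. At day 35 the counts there were 0 higher and 1 lower, against 2.68% and 1.4%. The single-cluster values were added after the pooled ones had been seen.

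**Figure D2:**
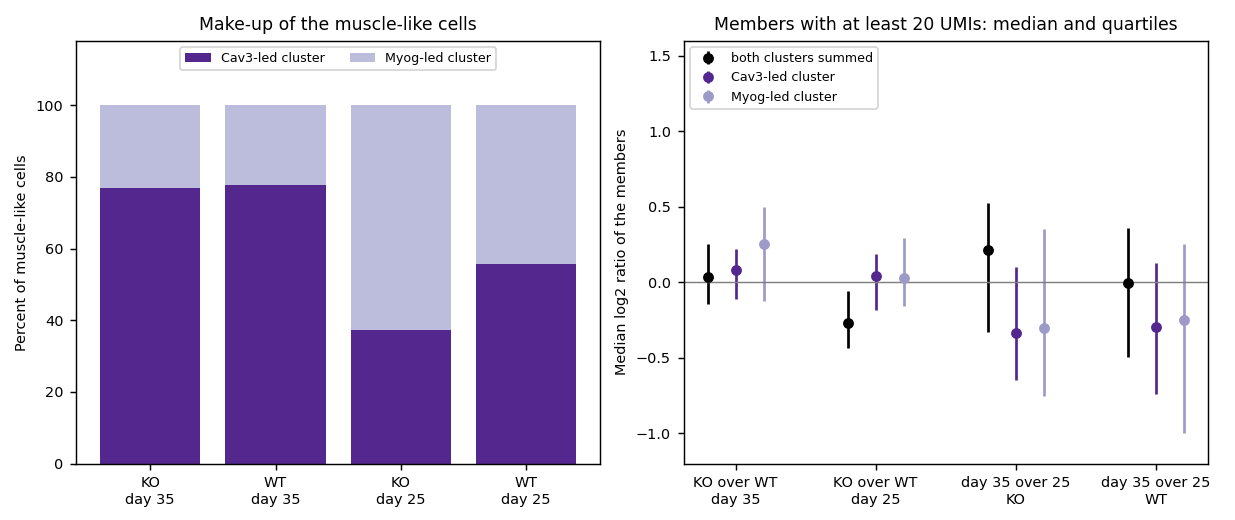
Left, percent of muscle-like cells in the Cav3-led and Myog-led clusters in each library. Right, median log2 ratio of the members with at least 20 UMIs, with lines from the lower to the upper quartile over members, for both clusters summed and for each alone. The pooled day 25 value of -0.27 and the pooled KO value of 0.22 for day 35 over day 25 are not matched by either cluster.

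**Figure D3:**
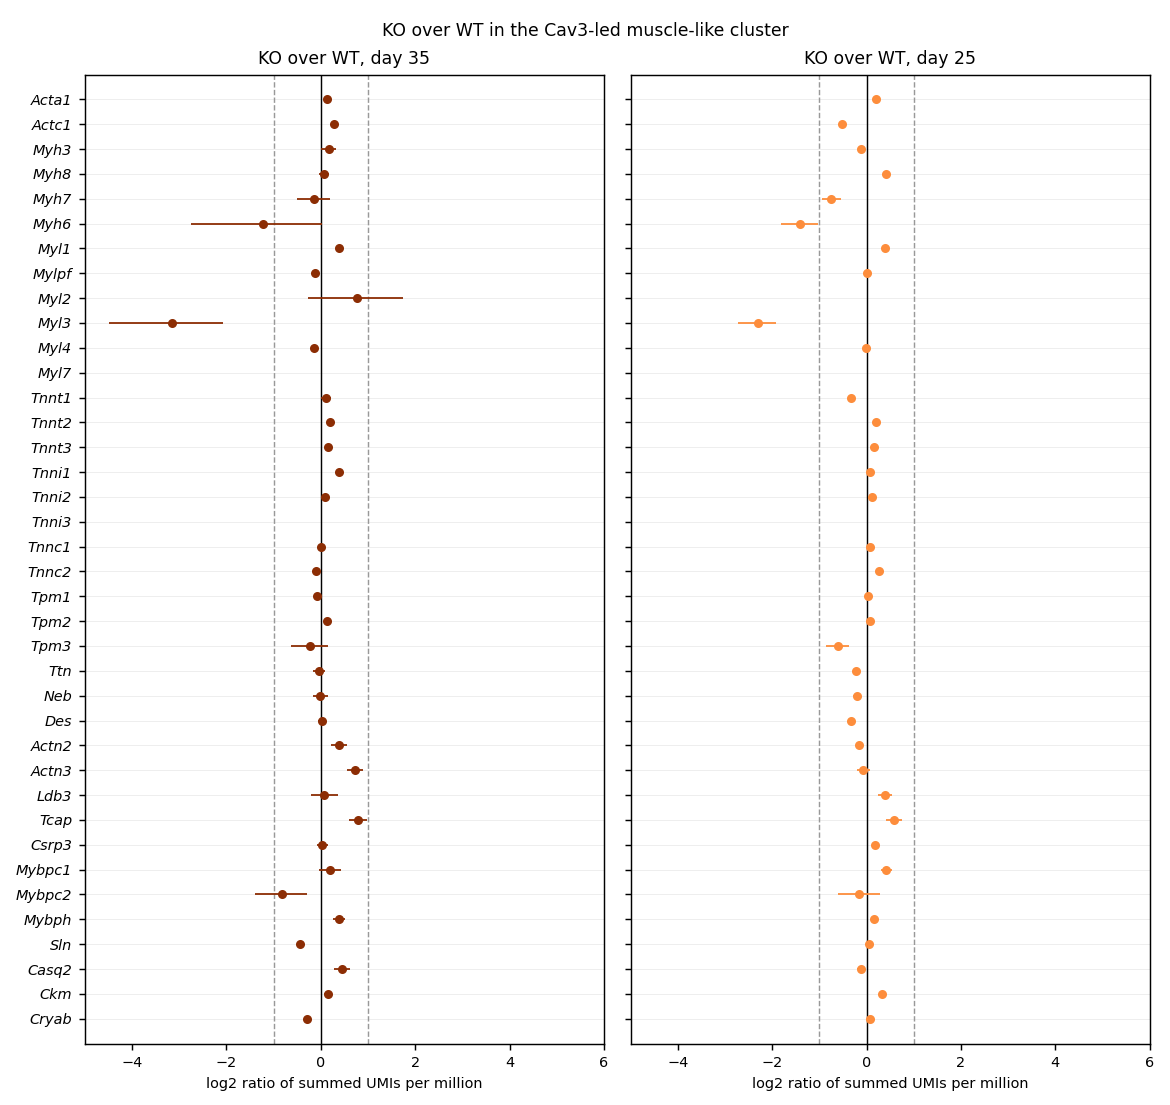
log2 ratio of each member, KO over WT, in the Cav3-led cluster at day 35 (left) and day 25 (right), with 95% counting intervals. Dashed lines mark a 2-fold difference, and members under 20 UMIs are not drawn. Myl3 and Myh6 lie beyond the lower line on both days. In this cluster Myh6 passed the fold at day 25 but not at day 35, where its interval included no difference.

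Between the days, some members were higher and others lower at day 35, in both genotypes. In muscle-like KO cells 6 members were higher and 1 lower at day 35 than at day 25, against 4.13% and 5.47% of all genes. In WT cells 4 were higher and 3 lower, against 4.77% and 9.25%. The 7 past the fold in KO became 13 with each library clustered alone, and the 7 in WT became 14 with the gate on muscle markers. That gate took 2824 WT cells at day 25 and 1366 at day 35, in place of 965 and 821 muscle-like cells. Shares and medians of all genes were not computed for either choice of cells. Within the Cav3-led cluster the counts were 4 higher and 3 lower in KO, against 3.29% and 4.92% of all genes. In WT they were 4 higher and 5 lower, against 4.37% and 10.2%. The median log2 ratio of the members in that cluster, day 35 over day 25, was -0.33 in KO and -0.29 in WT, beside 0.02 in KO and -0.15 in WT for all genes. Pooled over both clusters it was 0.22 in KO and -0.0014 in WT, with -0.57 in KO when each library was clustered alone and 0.759 in WT with the gate. Whether KO and WT differed in these ratios was not tested. Each contrast of genotypes shares its libraries with the contrasts of days.

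**Figure D4:**
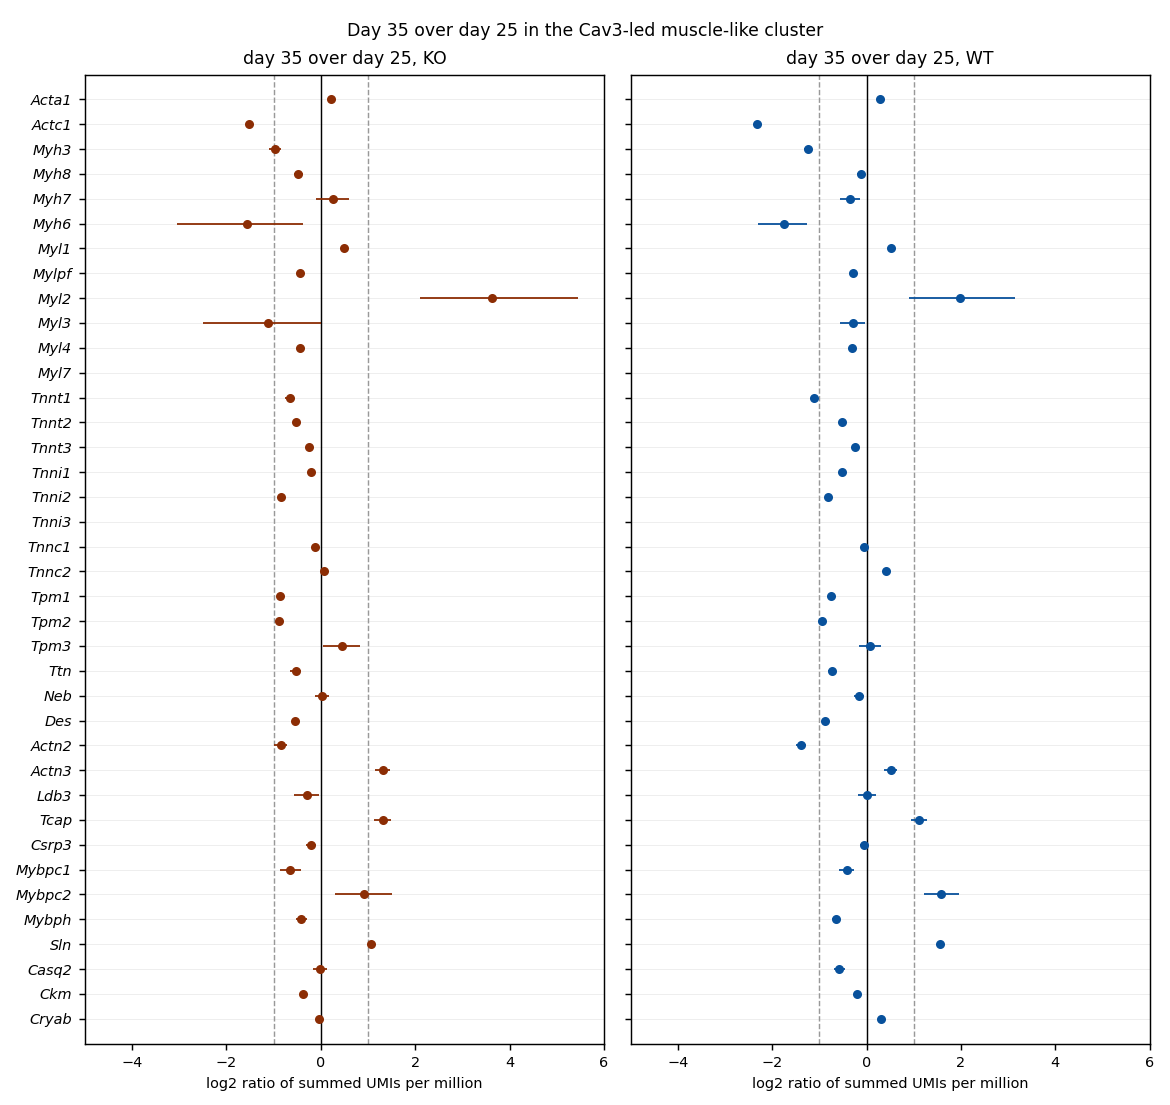
log2 ratio of each member, day 35 over day 25, in the Cav3-led cluster of KO (left) and WT (right) cells, with 95% counting intervals. Dashed lines mark a 2-fold difference, and members under 20 UMIs are not drawn. Actc1 and Myh6 are beyond the lower line and Sln, Tcap and Myl2 are beyond the upper line in both.

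The actins of the thin filament gave the clearest difference between the days. Actc1, the cardiac alpha-actin that skeletal muscle uses before birth, had 1686 CPM in KO and 1385 CPM in WT at day 35, and 4860.4 CPM in KO and 6932 CPM in WT at day 25 in the Cav3-led cluster. Both day 35 libraries lay below both day 25 libraries. The log2 ratio, day 35 over day 25, was -1.53 (-1.59 to -1.47) in KO and -2.32 (-2.37 to -2.28) in WT. Acta1, the skeletal alpha-actin of mature fibres, had 14738 CPM in KO and 13549 CPM in WT at day 35, and 12707 CPM in KO and 11065 CPM in WT at day 25, and its 4 libraries lay within a narrow range, with no ratio between days above 0.29 on the log2 scale. The Actc1 share of the UMIs of both actins was 10.3% in KO and 9.27% in WT at day 35, and 27.7% in KO and 38.5% in WT at day 25. In the Myog-led cluster the Actc1 share was 59.7% in KO and 49.4% in WT at day 35, and 77.3% in KO and 78.7% in WT at day 25, also smaller at day 35. The Actc1 level there was 2569 CPM in KO and 1929.6 CPM in WT at day 35, and 4488 CPM in KO and 4818 CPM in WT at day 25, a log2 ratio between days of -0.81 (-0.91 to -0.7) in KO, short of the fold, and -1.32 (-1.41 to -1.23) in WT, while Acta1 had 1732 CPM in KO and 1976 CPM in WT at day 35, and 1315 CPM in KO and 1301 CPM in WT at day 25. The coding parts of Acta1 and Actc1 are nearly alike, and UMIs read there could have been split between them. With each cell thinned to 2000 UMIs, the share of Cav3-led cells with an Actc1 UMI was 58.4% in KO and 52.3% in WT at day 35, and 86.6% in KO and 91.4% in WT at day 25 (25 WT day 35 cells below that depth were left out). The order of the libraries by this share was that of the levels. Without thinning the shares were 74.2% in KO and 63.5% in WT at day 35, and 96.6% in KO and 98.7% in WT at day 25. In keratinocyte-like cells, which should lack the gene, the thinned share was 2.47% in KO and 0.763% in WT at day 35, and 12.5% in KO and 13.2% in WT at day 25. It was also higher at day 25 there, but far below the share in Cav3-led cells. Median UMIs per cell in the Cav3-led cluster were 6366 in KO and 5131 in WT at day 35, and 11658 in KO and 11071 in WT at day 25. In keratinocyte-like cells they were 5444 in KO and 3569 in WT at day 35, and 9345 in KO and 8055 in WT at day 25, so depth per cell was greater at day 25 in both. Between genotypes, the log2 ratio of Actc1 in the Cav3-led cluster, KO over WT, was 0.28 (0.21 to 0.36) in day 35 cells and -0.51 (-0.53 to -0.49) in day 25 cells. Neither reached 2-fold, and whether the days differ in it was not tested.

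The promoters of both actins and of Myl3, the member that differed most between genotypes, are shown because each holds a CArG box, the element that serum response factor binds. The letters are RefSeq sequence of build GRCm38.p6, 300 bases each, from 250 before to 50 after the annotated start. Capitals mark the CArG box, the TATA box and the 2 kinds of E box spelled out below the sequences, a site that myogenic bHLH factors such as MyoD bind, all searched on both strands.
Acta1 promoter, chr8:123894726-123895025, minus strand: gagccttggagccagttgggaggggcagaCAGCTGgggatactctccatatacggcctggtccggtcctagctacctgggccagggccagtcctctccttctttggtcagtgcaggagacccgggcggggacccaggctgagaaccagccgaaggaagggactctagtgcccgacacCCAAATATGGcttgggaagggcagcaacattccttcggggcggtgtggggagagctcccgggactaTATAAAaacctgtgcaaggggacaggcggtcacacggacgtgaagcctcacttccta
Actc1 promoter, chr2:114052826-114053125, minus strand: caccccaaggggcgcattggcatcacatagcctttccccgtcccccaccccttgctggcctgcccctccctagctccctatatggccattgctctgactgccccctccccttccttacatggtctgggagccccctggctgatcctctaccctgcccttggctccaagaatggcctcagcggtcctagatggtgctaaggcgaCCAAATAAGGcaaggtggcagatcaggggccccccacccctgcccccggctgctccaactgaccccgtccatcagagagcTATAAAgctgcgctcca
Myl3 promoter, chr9:110763428-110763727, plus strand: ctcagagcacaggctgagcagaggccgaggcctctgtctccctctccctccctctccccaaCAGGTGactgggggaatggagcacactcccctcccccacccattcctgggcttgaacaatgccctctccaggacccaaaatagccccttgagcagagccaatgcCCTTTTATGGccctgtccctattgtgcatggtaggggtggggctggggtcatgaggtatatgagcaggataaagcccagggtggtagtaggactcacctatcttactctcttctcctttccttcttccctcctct
The CArG box begins 73 bases before the annotated start in Acta1, 47 in Actc1 and 85 in Myl3, and the TATA box begins 7 bases before the start in Acta1 and 33 after it in Actc1. The outermost 5' ends of Actc1 (114053548) and Myl3 (110741861) in GENCODE lie outside these windows. Which start these cells used was not tested, so the distances hold for the annotated start only. Of the 31 member genes matched by symbol in the promoter table, 5 held a CArG box (Acta1, Actc1, Myl3, Myl7 and Ldb3), or 16.1%, against 1.81% of all genes in the table. The E box CAGCTG was found in 12 of the 31 (38.7%), against 18.3% of all genes. The E box CAGGTG, read on either strand, stood in 9 (29.03%), against 22.6%. The TATA box TATAAA was present in 9 (29.03%), against 15.7%, and the MEF2 site in 3 (Myh8, Ttn and Casq2), or 9.68% against 3.704%. Each E box above is also a match to the broader CANNTG, not marked in capitals, which 29 of the 31 and 74.99% of all genes hold. These matches describe letters in a window and not bound sites. In the Cav3-led cluster Actc1 passed the fold between days in both genotypes, Myl3 between genotypes on both days and between days in KO, and Acta1 in no comparison.

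The embryonic myosin heavy chain was lower in both day 35 libraries, and the perinatal one differed less. Myh3, the embryonic chain, had 373 CPM in KO and 333 CPM in WT at day 35, and 728 CPM in KO and 785 CPM in WT at day 25 in the Cav3-led cluster. Both day 35 libraries lay below both day 25 libraries, with a log2 ratio of -0.97 (-1.1 to -0.83) in KO and -1.24 (-1.33 to -1.15) in WT, of which the WT value passed the fold. Myh8, the perinatal chain, had 716 CPM in KO and 683 CPM in WT at day 35, and 998 CPM in KO and 747 CPM in WT at day 25. Its libraries lay closer together, and the ratio between days was -0.48 (-0.58 to -0.38) in KO and -0.13 (-0.2 to -0.06) in WT. Among the UMIs of 7 heavy chain genes, which include the adult fast Myh1, Myh2 and Myh4 outside the member list, the Myh3 share was 29.2% in KO and 28.9% in WT at day 35, and 39.6% in KO and 46.6% in WT at day 25. The Myh8 share was 56.2% in KO and 59.4% in WT at day 35, and 54.2% in KO and 44.3% in WT at day 25. Myh1, the adult IIx chain, contributed 4.68% in KO and 2.27% in WT at day 35, and 1.05% in KO and 0.322% in WT at day 25, higher at day 35 in both genotypes and higher in KO on both days. The share of Cav3-led cells with a Myh3 UMI, thinned to 2000 UMIs, was 33.7% in KO and 27.7% in WT at day 35, and 51.9% in KO and 56.3% in WT at day 25. The unthinned shares were 45.3% in KO and 38.97% in WT at day 35, and 77.4% in KO and 81.6% in WT at day 25, and keratinocyte-like cells gave thinned shares of 0% in KO and 0.763% in WT at day 35, and 1.79% in KO and 2.55% in WT at day 25, with an upper bound of 2.25% for the share of 0.

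Myh7 and Myh6, the slow and the cardiac alpha heavy chain, lie side by side on chromosome 14 and are close in sequence, so UMIs of one may have been counted for the other. Myh7 had 67.04 CPM in KO and 74.2 CPM in WT at day 35, and 56.4 CPM in KO and 94.6 CPM in WT at day 25 in the Cav3-led cluster. WT day 25 was the highest of the 4 and KO day 25 the lowest, and the log2 ratio, KO over WT, came to -0.15 (-0.5 to 0.2) in day 35 cells and -0.75 (-0.95 to -0.55) in day 25 cells. Over both clusters its day 25 ratio was -1.12 (-1.31 to -0.92), which passed the fold. Myh6 had 4.42 CPM in KO and 10.3 CPM in WT at day 35, and 13.1 CPM in KO and 34.8 CPM in WT at day 25. Both KO values were below the WT value of the same day, with a log2 ratio of -1.22 (-2.76 to 0.03) for day 35, where KO had 6 UMIs and WT 38, and -1.41 (-1.81 to -1.03) for day 25, which passed the fold. Over both clusters both passed it, at -1.27 (-2.81 to -0.02) for day 35 and -1.71 (-2.1 to -1.34) for day 25. Between days the Myh6 ratio in the Cav3-led cluster passed the fold in each genotype, at -1.56 (-3.06 to -0.37) in KO and -1.75 (-2.29 to -1.25) in WT. Nearly every cell with a Myh6 UMI also had Myh7, namely 4 of 5 KO and 31 of 32 WT cells at day 35, and 45 of 45 KO and 99 of 105 WT cells at day 25. Among cells without Myh6, Myh7 was found in 31 of 185 KO and 74 of 607 WT cells at day 35, and in 57 of 394 KO and 80 of 433 WT cells at day 25.

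**Figure D5:**
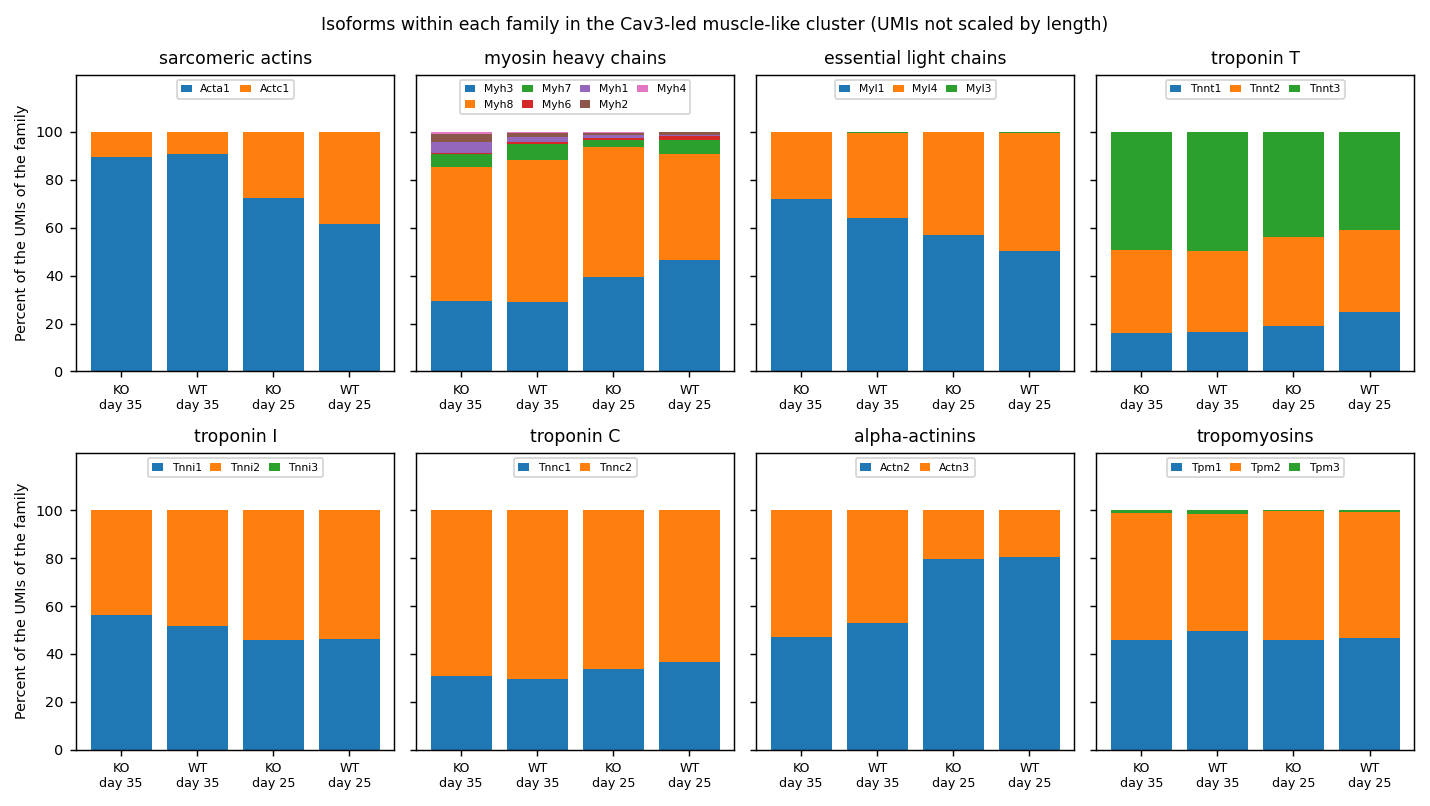
Percent of each family's UMIs from each isoform gene in the Cav3-led cluster, 1 bar per library. UMIs are not scaled by transcript length. Actc1, Myh3, Myl4, Tnnt1, Tnnc1 and Actn2, and also the fast Tnni2, take a smaller share in both day 35 bars than in both day 25 bars, such as Actc1 at 10.3% in KO and 9.27% in WT at day 35.

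Myl3, the slow and ventricular essential light chain, had the largest log2 ratio between genotypes of the members with at least 20 UMIs in the Cav3-led cluster, on each day. It had 5.16 CPM in KO and 45.7 CPM in WT at day 35, and 11.3 CPM in KO and 55.8 CPM in WT at day 25 there. Both KO libraries lay below both WT libraries, and the log2 ratio, KO over WT, came to -3.15 (-4.48 to -2.07) in day 35 cells and -2.31 (-2.72 to -1.92) in day 25 cells. Pooled over both clusters the ratios were -3.22 (-4.56 to -2.15) for day 35 and -2.67 (-3.07 to -2.29) for day 25. The UMIs came from few cells. In the Cav3-led cluster 4 of 190 KO and 28 of 639 WT cells had any at day 35, and 12 of 439 KO and 41 of 538 WT cells at day 25. The shares of cells, with exact binomial intervals, were 2.11% (0.577 to 5.302) in KO and 4.38% (2.93 to 6.27) in WT at day 35. They were 2.73% (1.42 to 4.73) in KO and 7.62% (5.52 to 10.2) in WT at day 25. Cells are not replicates, so these intervals do not measure the spread between libraries and do not test the genotypes. The share of its UMIs in the 5 cells with most Myl3 was 100% in KO and 74.4% in WT at day 35, and 84.1% in KO and 54.6% in WT at day 25, so the ratio of sums rests on few cells. Between the days the Myl3 log2 ratio in KO was -1.13, with an interval that just left out 0 and 7 UMIs at day 35 and 63 at day 25, and in WT it was -0.29 (-0.56 to -0.02). Thinned to 2000 UMIs per cell, the share with Myl3 was 0.526% in KO and 2.28% in WT at day 35, and 1.14% in KO and 3.35% in WT at day 25. In keratinocyte-like cells it was 0% in KO and 0% in WT at day 35, and 0% in KO and 0.159% in WT at day 25, where the 3 shares of 0 have exact binomial upper bounds of 2.25%, 2.78% and 1.095% in the same order. The Myog-led cluster had 0 CPM in KO and 4.97 CPM in WT at day 35, and 0.3803 CPM in KO and 0.9503 CPM in WT at day 25. Of the cells with Myl3, 0 of 4 KO and 9 of 28 WT cells at day 35 and 10 of 12 KO and 29 of 41 WT cells at day 25 also had Myh7.

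None of the other light chains passed the fold between genotypes in the Cav3-led cluster. Myl1, the fast essential light chain, had 10308 CPM in KO and 7903 CPM in WT at day 35, and 7301 CPM in KO and 5560.3 CPM in WT at day 25, with both day 35 libraries above both day 25 libraries. Myl4, the embryonic and atrial essential light chain, had 4009 CPM in KO and 4414 CPM in WT at day 35, and 5469.5 CPM in KO and 5485 CPM in WT at day 25, the reverse order. The Myl4 share of essential light chain UMIs was 27.99% in KO and 35.7% in WT at day 35, and 42.8% in KO and 49.4% in WT at day 25. Mylpf, the fast regulatory light chain, had 8129 CPM in KO and 8905 CPM in WT at day 35, and 11053 CPM in KO and 10946 CPM in WT at day 25 and took from 99.9% to 99.99% of the UMIs of the regulatory light chains Mylpf, Myl2 and Myl7. Myl2, the slow and ventricular regulatory light chain, was near the detection limit, with 15 UMIs in KO and 24 in WT at day 35, and 5 in KO and 11 in WT at day 25. Its log2 ratio, day 35 over day 25, was 3.63 (2.09 to 5.44) in KO and 1.98 (0.89 to 3.15) in WT. Over both clusters Myl2 was lower in KO at day 25, with 6 UMIs in KO and 17 in WT and a log2 ratio of -1.65 (-3.28 to -0.24).

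Of the 3 isoforms used mainly by the heart, Myl7 and Tnni3 were near 0 and Myh6, described above, was not. Myl7, the atrial regulatory light chain, had 0.737 CPM in KO and 0.272 CPM in WT at day 35, and 0.716 CPM in KO and 0.452 CPM in WT at day 25 in the Cav3-led cluster. Tnni3, the cardiac troponin I, had 2.95 CPM in KO and 0.272 CPM in WT at day 35, and 1.07 CPM in KO and 0.452 CPM in WT at day 25. Neither reached 20 UMIs over 2 libraries there. Over both clusters Tnni3 had 19 UMIs in KO and 3 in WT at day 25, which passed the fold at a log2 ratio of 2.52 (0.75 to 4.91). Of 8 cardiomyocyte marker genes, 5 had any UMI in muscle-like cells and their sum was between 0.922 and 2.25 CPM in the 4 libraries, with Nppa, Tbx5 and Tbx20 at 0. Of 8 smooth muscle markers all had a UMI. Acta2, a smooth muscle actin that early skeletal muscle cells also express, gave between 921 and 1771 CPM of sums between 965 and 1838 CPM. Over the 4 libraries Synpo2 had 822 UMIs, Tagln 485, Lmod1 64, Cnn1 53, Actg2 18, Myh11 5 and Myocd 1. Of 18 listed skeletal muscle marker symbols, 16 were found and all 16 had UMIs, summing to 5717 CPM in KO and 4352 CPM in WT at day 35, and 5809.8 CPM in KO and 4923 CPM in WT at day 25. The symbols not found, Mymk and Mymx, name the same genes as Tmem8c and Gm7325, which were listed and found.

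Slow, fast and embryonic troponin isoforms were found together, and none with at least 20 UMIs differed 2-fold between KO and WT in the Cav3-led cluster. Troponin T binds tropomyosin, troponin I holds the thin filament off and troponin C senses calcium. Tnnt1, the slow troponin T, had 783 CPM in KO and 724 CPM in WT at day 35, and 1239 CPM in KO and 1556 CPM in WT at day 25 in the Cav3-led cluster, lower in both day 35 libraries, with a log2 ratio of -0.66 (-0.76 to -0.57) in KO and -1.1 (-1.17 to -1.04) in WT. Tnnt2, the cardiac and embryonic troponin T, had 1695 CPM in KO and 1475 CPM in WT at day 35, and 2434 CPM in KO and 2117 CPM in WT at day 25, also lower in both day 35 libraries. Tnnt3, the fast troponin T, had 2409.9 CPM in KO and 2181 CPM in WT at day 35, and 2867 CPM in KO and 2568 CPM in WT at day 25, and its share of troponin T was 49.3% in KO and 49.8% in WT at day 35, and 43.8% in KO and 41.1% in WT at day 25. For troponin I, slow Tnni1 had 3102 CPM in KO and 2388 CPM in WT at day 35, and 3594 CPM in KO and 3406 CPM in WT at day 25. Fast Tnni2 had 2391 CPM in KO and 2248 CPM in WT at day 35, and 4276 CPM in KO and 3959 CPM in WT at day 25, lower at day 35, with a log2 ratio of -0.84 (-0.89 to -0.79) in KO and -0.82 (-0.85 to -0.78) in WT. The Tnni2 share of troponin I was 43.5% in KO and 48.5% in WT at day 35, and 54.3% in KO and 53.8% in WT at day 25, so the fast isoform took a smaller share at day 35, the opposite of Tnnt3. Slow Tnnc1 had 3173 CPM in KO and 3171 CPM in WT at day 35, and 3441 CPM in KO and 3292 CPM in WT at day 25, the narrowest range of the troponins. Fast Tnnc2 had 7068 CPM in KO and 7567 CPM in WT at day 35, and 6773 CPM in KO and 5674 CPM in WT at day 25. Of the 7 troponin genes with at least 20 UMIs in that cluster, Tnnt1 in WT was the only one past the fold between days.

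Troponin T and I genes lie in pairs in the mouse genome, and both genes of a pair are given side by side. On chromosome 7, fast Tnni2 (chr7:142441808-142444410) and fast Tnnt3 (chr7:142498836-142516009, GRCm38) lie close together, and their log2 ratios, day 35 over day 25, were -0.84 (-0.89 to -0.79) for Tnni2 and -0.25 (-0.31 to -0.2) for Tnnt3 in KO cells of the Cav3-led cluster. Slow Tnnt1 (chr7:4504570-4516382) lies beside cardiac Tnni3 (chr7:4518305-4524229), which was near 0. Slow Tnni1 (chr1:135779434-135810989) and Tnnt2 (chr1:135836354-135852260) are the third pair, with ratios of -0.21 (-0.26 to -0.16) for Tnni1 and -0.52 (-0.59 to -0.46) for Tnnt2 in KO. These pair ratios are for KO alone. By the WT levels above, Tnni2, Tnnt3, Tnni1 and Tnnt2 were lower at day 35 in WT too.

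Tpm1 and Tpm2, tropomyosins that cover the myosin sites on actin, were lower at day 35 in both genotypes without reaching 2-fold. Tpm1 had 2083 CPM in KO and 2192 CPM in WT at day 35, and 3796 CPM in KO and 3710.05 CPM in WT at day 25 in the Cav3-led cluster, and Tpm2 had 2400.3 CPM in KO and 2179 CPM in WT at day 35, and 4426 CPM in KO and 4207 CPM in WT at day 25. For both, each day 35 library lay below each day 25 library. Tpm3, whose gene also makes a widely used non-muscle tropomyosin, had 53.05 CPM in KO and 62.5 CPM in WT at day 35, and 38.9 CPM in KO and 59.4 CPM in WT at day 25, less than its median of 121 CPM over the other clusters.

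Among the giant and Z disc proteins of the Cav3-led cluster, Tcap passed the fold between days in both genotypes, Actn3 in KO alone and Actn2 in WT alone. Actn3, the alpha-actinin of fast fibres, had 362 CPM in KO and 219 CPM in WT at day 35, and 146 CPM in KO and 154 CPM in WT at day 25 in the Cav3-led cluster. KO day 35 was highest, and the log2 ratio between days was 1.31 (1.14 to 1.47) in KO and 0.51 (0.37 to 0.64) in WT, the second short of the fold. Actn2, the alpha-actinin common to striated muscle, had 319.7 CPM in KO and 245 CPM in WT at day 35, and 578 CPM in KO and 642 CPM in WT at day 25, with ratios of -0.85 (-1.0 to -0.71) in KO, short of the fold, and -1.39 (-1.5 to -1.29) in WT. The Actn3 share of alpha-actinin UMIs was 53.1% in KO and 47.2% in WT at day 35, and 20.2% in KO and 19.3% in WT at day 25, with KO and WT close to each other on each day. Tcap, which caps titin at the Z disc, had 290.3 CPM in KO and 168 CPM in WT at day 35, and 117 CPM in KO and 77.8 CPM in WT at day 25. Its ratio between days was 1.31 (1.13 to 1.49) in KO and 1.11 (0.94 to 1.28) in WT, and its KO over WT ratio reached 0.79 (0.61 to 0.98) in day 35 cells and 0.59 (0.42 to 0.76) in day 25 cells, below 2-fold. The 5 highest cells held 39.6% of the Tcap UMIs in KO and 15.2% in WT at day 35. Ttn had 483 CPM in KO and 494 CPM in WT at day 35, and 698 CPM in KO and 819 CPM in WT at day 25, and Neb had 337 CPM in KO and 339 CPM in WT at day 35, and 329.8 CPM in KO and 379.6 CPM in WT at day 25. Desmin (Des), the muscle intermediate filament, had 1333 CPM in KO and 1318 CPM in WT at day 35, and 1935 CPM in KO and 2424 CPM in WT at day 25, lower in both day 35 libraries. Ldb3, a Z disc scaffold also called Cypher or ZASP, ranged from 102 to 134 CPM, and Csrp3, the muscle LIM protein, from 638 to 756 CPM over the 4 libraries.

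The myosin-binding proteins, which lie along the thick filament, included 1 with a difference between days. Mybpc2, the fast form, had 25.8 CPM in KO and 45.7 CPM in WT at day 35, and 13.6 CPM in KO and 15.2 CPM in WT at day 25 in the Cav3-led cluster, with a log2 ratio between days of 0.92 (0.3 to 1.52) in KO and 1.58 (1.22 to 1.95) in WT, of which the WT value passed the fold. Mybpc1, the slow form, had 150.3 CPM in KO and 131 CPM in WT at day 35, and 235 CPM in KO and 175 CPM in WT at day 25. Mybph, the related protein H, had 521 CPM in KO and 398 CPM in WT at day 35, and 696 CPM in KO and 619.7 CPM in WT at day 25. Between genotypes the 3 ratios at day 35 were -0.82 (-1.39 to -0.29) for Mybpc2, 0.2 (-0.04 to 0.44) for Mybpc1 and 0.39 (0.26 to 0.52) for Mybph.

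Of the calcium, energy and chaperone members, Sln was higher at day 35. Sarcolipin (Sln), a small inhibitor of the sarcoplasmic reticulum calcium pump, had 2479 CPM in KO and 3388 CPM in WT at day 35, and 1189 CPM in KO and 1153 CPM in WT at day 25 in the Cav3-led cluster. Both day 35 libraries lay above both day 25 libraries, by 1.06 (1.0 to 1.12) in KO and 1.56 (1.51 to 1.6) in WT on the log2 scale. Over both clusters the KO ratio of Sln fell short of the fold when each library was clustered alone. In the Myog-led cluster Sln had 237 CPM in KO and 306 CPM in WT at day 35, and 99.5 CPM in KO and 163 CPM in WT at day 25. Both day 35 values were again above both day 25 values, while KO was below WT at day 25 there. Casq2, the calsequestrin of heart and slow muscle that stores calcium, had 306 CPM in KO and 225 CPM in WT at day 35, and 309.7 CPM in KO and 336 CPM in WT at day 25. Ckm, the muscle creatine kinase, had 1037 CPM in KO and 930.2 CPM in WT at day 35, and 1336 CPM in KO and 1071 CPM in WT at day 25. Cryab, the small heat shock protein that protects desmin and titin, had 1529 CPM in KO and 1862 CPM in WT at day 35, and 1571 CPM in KO and 1497 CPM in WT at day 25. None of the last 3 passed the fold in any of the 4 comparisons in that cluster.

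The counts by isoform class over both clusters move with the mix of clusters, of which the Cav3-led one held 76.9% of KO and 77.8% of WT muscle-like cells at day 35 and 37.2% of KO and 55.8% of WT cells at day 25. Of all genes, 4.13% were higher and 5.47% lower in KO, and 4.77% higher and 9.25% lower in WT, as above. Of 7 fast members, 3 were higher at day 35 in KO (Myl1, Actn3 and Mybpc2) and 1 in WT (Mybpc2). Within the Cav3-led cluster 1 was higher in KO (Actn3) and 1 in WT (Mybpc2), where Myl1 had a log2 ratio of 0.5 (0.47 to 0.53) and Mybpc2 of 0.92 (0.3 to 1.52) in KO. With each library clustered alone, neither Myl1 nor Mybpc2 passed in KO, and Myl1 did not pass with doublets removed. Of 9 slow members, 1 was higher in KO and 1 in WT (Myl2 in both), with none lower. The 3 embryonic or cardiac members had 1 lower in each genotype (Actc1), and the other two, Myl4 and Tnnt2, were within 2-fold. Neither Myh3 nor Myh8 passed it over both clusters. Of 10 members common to striated muscle, 2 were higher in each genotype (Sln and Tcap) and Actn2 was lower in WT. Sln did not pass the fold in KO with each library clustered alone. Of 3 cardiac members, Myh6 was lower in WT. As a share of all member UMIs in the Cav3-led cluster, the embryonic or cardiac class made up 9.84% in KO and 10.1% in WT at day 35, and 14.8% in KO and 17.6% in WT at day 25. The fast class made up 40.8% in KO and 40.4% in WT at day 35, and 37.7% in KO and 35.05% in WT at day 25, and the slow class 10.98% in KO and 10.3% in WT at day 35, and 11.2% in KO and 11.6% in WT at day 25.

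Other genes of the sarcomere and of excitation and energy supply, from 2 lists outside the members, had more entries past the fold between days than between genotypes. Of 36 other sarcomere genes, 6 of 32 with 20 UMIs were higher and 0 lower at day 35 in KO muscle-like cells, and 5 of 33 were higher and 2 lower in WT. The shares of all genes were 4.13% higher and 5.47% lower in KO, and 4.77% higher and 9.25% lower in WT. Of 30 excitation, contraction and energy genes, 7 of 29 were higher in KO and 7 of 29 in WT, with none lower. Within the Cav3-led cluster the higher counts were 2 in KO and 4 in WT for the first list and 3 in KO and 5 in WT for the second. The shares of all genes higher there were 3.29% in KO and 4.37% in WT. The ratios of single list genes, here and between genotypes, are over both clusters only, and the mix of clusters differed between the days. Cox7a1, a muscle subunit of cytochrome c oxidase, had 125 CPM at day 35 and 26.3 CPM at day 25 in KO, and 84.98 CPM at day 35 and 14.2 CPM at day 25 in WT, a log2 ratio of 2.25 (1.98 to 2.51) in KO and 2.58 (2.3 to 2.87) in WT. Myh1 had a ratio of 2.28 (1.87 to 2.69) in KO and 2.27 (1.75 to 2.8) in WT. Ckmt2, the mitochondrial creatine kinase of muscle, had 1.68 (1.3 to 2.05) in KO and 1.91 (1.5 to 2.33) in WT. Myoglobin (Mb), which stores oxygen, had 339 CPM at day 35 and 61.5 CPM at day 25 in KO, a log2 ratio of 2.46 (2.3 to 2.63). In WT it had 127 CPM at day 35 and 45.7 CPM at day 25, a log2 ratio of 1.48 that also passed the fold. In WT, Synpo2l, a Z disc protein, and Smyd1, a methyltransferase needed for sarcomere assembly, were lower at day 35, at -1.06 (-1.29 to -0.84) for Synpo2l and -1.05 (-1.37 to -0.74) for Smyd1.

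Between genotypes at day 35, 3 genes of the first list were higher and 2 lower in KO, and 4 of the second were higher and 0 lower, beside 2.63% higher and 1.63% lower of all genes. Mb had 339 CPM in KO and 127 CPM in WT, a log2 ratio of 1.42 (1.24 to 1.59). The adult fast chains Myh1 and Myh2 had ratios of 1.22 (0.79 to 1.65) for Myh1 and 1.16 (0.64 to 1.69) for Myh2, and Casq1, the calsequestrin of fast muscle, 1.03 (0.73 to 1.32). Ankrd1 and Ankrd2, titin-binding proteins that respond to stretch, were lower in KO, with 145 CPM in KO and 346 CPM in WT for Ankrd1 and a ratio of -1.07 (-1.28 to -0.87) for Ankrd2. At day 25, Myh1 and Ckmt2 were higher in KO, at 1.2 (0.71 to 1.72) for Myh1 and 1.07 (0.68 to 1.47) for Ckmt2, and Smyd1 was lower, at -1.19 (-1.42 to -0.96). Of all genes, 1.68% were higher and 1.97% lower in KO at day 25. These ratios are over both clusters, and the Cav3-led one held 37.2% of KO and 55.8% of WT muscle-like cells at day 25. Markers of other cell types differed between the libraries as well. The 8 fibroblast markers summed to 701.8 CPM in KO and 473.9 CPM in WT muscle-like cells at day 35 and 1036.3 CPM in KO and 598.2 CPM in WT at day 25, and all 8 had UMIs. The pluripotent markers, of which 5 of 6 had UMIs, summed to 33.01 CPM in KO and 0.467 CPM in WT at day 35, and 2.86 CPM in KO and 3.58 CPM in WT at day 25. Other sets were lower in KO on 1 or both days. The keratinocyte markers summed to 33.6 CPM in KO and 36.0 CPM in WT at day 35, and 42.7 CPM in KO and 102 CPM in WT at day 25. Neuron markers had 12.2 CPM in KO and 7.70 CPM in WT at day 35, and 30.9 CPM in KO and 58.7 CPM in WT at day 25. Immune markers had 23.2 CPM in KO and 39.0 CPM in WT at day 35, and 14.6 CPM in KO and 6.03 CPM in WT at day 25. The part of all these markers in the differences between genotypes was not tested.

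Over all kept cells most members were lower in KO than in WT at day 35. Their summed share of all UMIs was 0.376% in KO and 1.11% in WT at day 35, and 0.856% in KO and 0.996% in WT at day 25. In such a sum, fewer cells of a type and less RNA per cell cannot be told apart. At day 35, 32 of 38 members were lower and 1 higher in KO, against 2.88% and 9.76% of all genes, with a median log2 ratio of -1.46 beside 0.23 for all genes. Tnni3, Tpm1, Tpm3, Tcap and Mybpc1 were within 2-fold. At day 25, 4 were lower and 0 higher, against 4.78% and 2.46%, with a median of -0.28. With each library clustered alone, muscle-like cells at day 35 numbered 508 in KO and 883 in WT, in place of 247 in KO and 821 in WT. In the joint clustering their share at day 35 was 3.67% of KO and 10.1% of WT cells, and muscle-like cells held 73.9% of the member UMIs of the KO library and 80.01% of those of the WT library. Within muscle-like cells the day 35 median was 0.04, as given above. The member higher in KO over all kept cells was Myl7, with 1.98 CPM in KO and 0.389 CPM in WT at day 35. Cells that were neither muscle-like nor progenitor-like held 74 of its 76 UMIs in KO and 11 of 12 in WT, and its highest level was 10.3 CPM in the pluripotent-like cluster, to which KO day 35 gave 319 of 334 cells. Keratinocyte-like cells were close at 9.47 CPM, with 10.9 CPM in KO and 15.05 CPM in WT at day 35, and 5.03 CPM in KO and 11.3 CPM in WT at day 25.

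In cells that were neither muscle-like nor progenitor-like, members were found at a low level and mostly in the same proportions as in muscle-like cells. Their CPM outside muscle, as a percent of that in muscle-like cells of the same library, had as its median over members 0.989% in KO and 3.33% in WT at day 35, and 2.78% in KO and 2.49% in WT at day 25. Members within 2-fold of that median numbered 24 in KO and 30 in WT at day 35, and 28 in KO and 31 in WT at day 25, of 38. Tpm1, Tpm3, Mybpc2, Myl7 and Tnni3 were over 3 times the median in all 4 libraries. The cells outside muscle were not uniform. They included a cycling cluster of 1700 cells with 959 CPM of Actc1, 297 CPM of Des and 286 CPM of Tnnt1. These came from 13455 UMIs of Actc1, 4163 of Des and 4009 of Tnnt1, which are counted in the values above. The same cluster was second to the immune-like one for Tnnt2, Tnni1, Tnni2, Ttn, Neb and Actn2, among others. Whether it holds myogenic cells was not tested. The medians over the other clusters were 73.0 CPM for Actc1, 31.2 CPM for Des and 28.6 CPM for Tnnt1. Tpm3 was higher outside muscle than in it, with 137 CPM in KO and 122 CPM in WT at day 35, and 97.3 CPM in KO and 110.01 CPM in WT at day 25 in other cells. Mybpc2 reached 31.8 CPM in cluster 11, an unnamed cluster led by Gm6619 and 5430401F13Rik with Cldn10 and Napsa among its leading genes, against 22.0 CPM in the Cav3-led cluster. Cryab reached 585 CPM in the same cluster and 479 CPM in an otic epithelium-like one. Whether the low level of the other members came from free RNA in the droplets was not tested.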

How the data were processed

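Single cells of dissociated organoids were captured with the 10x Genomics v2 3' kit, 1 library per group. The deposited values are raw counts of UMIs for each gene in each barcode. Per the submitters' processing notes, R 3.5.1, Seurat 2.3.1, Cell Ranger 2.1.0 and bcl2fastq were used, with GRCm38 and mm10 as builds; the role of each is not given in the sources used here. From these counts, barcodes with at least 500 genes and at most 10% mitochondrial UMIs were kept. Their log-normalized values were clustered with scanpy 1.11.5 and leidenalg 0.10.2 (2000 variable genes, 30 principal components, 20 neighbours, resolution 1.0). The members, the pathway genes that are not markers, and ribosomal, mitochondrial, imprinted and Y-linked genes were left out. A cluster was named when at least 3 markers of a type were among its 50 leading genes and 2 among the top 20, thresholds set after the clusters had been seen. No doublets were removed; an alternative removes them at the expected rate.

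UMIs were summed per library and cluster. A ratio has a conditional binomial 95% interval (exact Poisson for levels, Clopper-Pearson for shares) that covers counting error only; a count of 0 was set to 3 UMIs in a ratio. The ratio procedure was checked on simulated data. The total UMIs of kept cells ranged from 30887121 to 84439223 per library. No test was made, since each group is 1 library. The members and lists were chosen with earlier results of these data known. All members could be named. Of the pathway lists, up to 5 genes in each direction and comparison were, ranked by the interval bound nearest 0. Positions are from GENCODE (GRCm38) and promoters from RefSeq; Python 3.11.15, numpy 2.4.6 and scipy 1.17.1 were used.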

Additional observations from a re-analysis of the deposited data

How the results depend on the processing

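Of 21 calls of a member past the fold in muscle-like cells, none turned direction under any alternative. All 21 were kept at resolution 2.0, with totals that left out the members and pathway genes, and with median scaling. The mean of per-cell CPM also kept 21, but there a call needed only the fold and the UMI minimum, with no interval. Of the calls still with enough UMIs, 20 of 20 were kept at resolution 0.5, 15 of 16 with thinned cells and 16 of 17 with a strict barcode filter (at least 1000 genes and at most 5% mitochondrial UMIs). A minimum of 1 UMI kept 21, and one of 100 UMIs kept 16 of 16. A changed minimum leaves each ratio as it was, so these settings could not drop a call that still had enough UMIs. Without a barcode filter, with a gate on muscle markers in place of clusters, and with doublets removed, 19 were kept in each case. Clustering each library alone kept 17 of 20 with enough UMIs. The Cav3-led cluster alone, an alternative chosen after seeing the data, kept 15 of 19, and the Myog-led cluster alone, chosen likewise, 3 of 8. No paired analysis was possible because each group has 1 library.

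Between KO and WT at day 25 (5 members past the fold), the count was 2 in the Cav3-led cluster, 0 in the Myog-led cluster, 3 with at least 100 UMIs and 3 with thinned cells. The median log2 ratio of -0.27 reversed to 0.04 in the Cav3-led cluster (0.044) and to 0.03 in the Myog-led cluster (0.0323), of which the first held 37.2% of KO and 55.8% of WT muscle-like cells. At day 35 (2 members), the count was 4 with the marker gate, 4 with libraries clustered alone, and 1 with doublets removed, in each cluster alone and with at least 100 UMIs. The day 35 median of 0.035 was 0.216 with the strict barcode filter, -0.607 with the marker gate, -0.595 with libraries clustered alone, 0.253 in the Myog-led cluster and -0.0641 with median scaling; the cause was not tested. Muscle-like cells at day 35 then numbered 555 in KO and 1366 in WT with the gate, and 508 in KO and 883 in WT with libraries clustered alone.

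Between the days in KO (7 members), 13 passed with libraries clustered alone and 4 in the Myog-led cluster. The KO median of 0.217 was -0.57 with libraries clustered alone, -0.335 in the Cav3-led cluster and -0.301 in the Myog-led cluster. In WT (7 members), 14 passed with the gate, where the median was 0.759 in place of -0.0014. The gate took 2824 WT cells at day 25 and 1366 at day 35, in place of 965 and 821, so it mixed in cells outside the muscle-like clusters. Shares and medians of all genes were not computed with the gate or with libraries clustered alone. The Actc1 share of both actins, day 35 minus day 25, was -26.7 points in KO over muscle-like cells. It was -28.1 without a barcode filter, -30.4 with the strict one, -29.7 with the gate, -17.4 in the Cav3-led cluster, -17.6 in the Myog-led cluster and -32.1 with the mean of per-cell CPM. In WT it was -33.2, and under the same alternatives -33.9, -39.1, -35.3, -29.2, -29.3 and -34.7, with -34.3 after removal of doublets. Over all kept cells the summed log2 ratio of the members, KO over WT, was -1.56 at day 35. It was -1.47 without a barcode filter, -1.4 with the strict one, -1.53 with doublets removed and -1.57 with totals that left out the members and pathway genes. At day 25 it was -0.219, with -0.173, -0.25 and -0.209 under the first 3 of these.

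With 1 library per group, a difference between genotypes or days cannot be told apart from one between libraries, lines or dissociations. Intervals cover counting error only. Members with few UMIs, such as Myl2, Myl7 and Tnni3, were limited by depth, and 190 Cav3-led cells of KO day 35 set the precision there.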

Other observations

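Some members had UMIs outside muscle, and the clusters with the highest levels differed between members. Over the 4 libraries, hair cell-like cells (120 cells) had 27.9 CPM of Actn3 from 22 UMIs, 22.8 CPM of Ldb3 from 18 UMIs and 7.61 CPM of Tcap from 6 UMIs, few UMIs but the highest level outside the muscle-like clusters for each. Their medians over the other clusters were 4.18 CPM for Actn3, 2.71 CPM for Ldb3 and 2.81 CPM for Tcap. Mybpc1, the slow myosin-binding protein, had 24.2 CPM in an otic epithelium-like cluster of 1735 cells, from 271 UMIs, against a median of 3.997 CPM. Actc1 had 959 CPM in a cycling cluster of 1700 cells, from 13455 UMIs, against a median of 73.0 CPM. That cluster was also the highest outside the muscle-like clusters for Des, with 297 CPM, and Tnnt1, with 286 CPM, and the second for Tpm2, with 388 CPM. Tpm3 had 224 CPM in the pluripotent-like cluster and 201 CPM in the immune-like one. These levels were picked after the values had been seen, and the part of doublets or free RNA in them was not tested.

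Immune-like cells of KO day 25 (65 cells) had 7880 CPM of the summed members, against 1675 CPM in the other non-muscle cells of that library. Over the 4 libraries the immune-like cluster had the highest level outside muscle for Acta1 (519 CPM), Myl1 (508 CPM), Mylpf (963 CPM), Ttn (101 CPM) and many other members. Members were over 1% of the UMIs in 2 of these cells, and the highest cell had 7.25%. Among Cav3-led cells with Myh3, Myh8 was found in 76 of 86 KO and 215 of 249 WT cells at day 35, and in 318 of 340 KO and 400 of 439 WT cells at day 25. Among those without Myh3, Myh8 was found in 47 of 104 KO and 132 of 390 WT cells at day 35, and in 60 of 99 KO and 58 of 99 WT cells at day 25.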
